A study of Mus musculus with 24 samples.

Results

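The interleukin-1 (IL-1) receptor family was followed across 7 mouse tumour cell lines on 24 one-colour Agilent expression arrays. Its 8 members, Il1rl1, Il18rap, Il18r1, Il1r1, Il1r2, Il1rl2, Il1rap and Sigirr, were taken by symbol from the transcript identifier of each probe, out of 22881 genes with a symbol on the arrays, and 14 probes read them. The family was chosen by measured values of these same arrays, the normalized log2 signals of its probes over all 7 lines and in particular those of Il1rl1 and Il18rap in the myeloid lines. The levels of the members and their differences between lines are therefore given as a description with no test, and tests were made on the ligands and the other genes of the pathway.

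B16F1 is a pigmented melanoma line of the C57BL/6 mouse, here carrying green fluorescent protein. The parental line B16F1-GFP-M (3 arrays, called M), the line recovered after about a year of dormancy in the animal, B16F1-GFP-D (4 arrays, D), and the second-generation lines from the brain, B16F1-GFP-DB#1 (4 arrays), B16F1-GFP-DB#2 (3 arrays) and B16F1-GFP-DB#3 (3 arrays), were grown in DMEM with serum and no drug. M0 (4 arrays) and J365 (3 arrays) are labelled as myeloid cells, with no medium, treatment or age of a host in the labels. The dormancy models of the study came from vaccination with irradiated tumour cells that overexpressed GM-CSF for melanoma or interleukin-12 for leukemia, and the cells were amplified in culture before RNA was taken. Each line is 1 isolate and the arrays of a line are not stated to come from separate cultures, so the p-values measure the spread between arrays, which may be technical.

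Receptors of this family share immunoglobulin-like domains outside the cell and a Toll/IL-1 receptor (TIR) domain inside it. A ligand-binding chain (Il1r1 for IL-1, Il18r1 for IL-18, Il1rl1 for IL-33, Il1rl2 for the IL-36 cytokines) recruits an accessory chain (Il1rap for IL-1, IL-33 and IL-36, Il18rap for IL-18), and the paired TIR domains bind Myd88 and the IRAK kinases, which lead to NF-kappaB and MAP kinases. Il1r2 is a decoy receptor with no TIR domain, Sigirr is an inhibitory member, and among blood cells Il1rl1, also called ST2, is known from mast cells, basophils and innate lymphoid cells.

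Of the 8 members, 6 lie in 1 run on chromosome 1 in the order Il1r2, Il1r1, Il1rl2, Il1rl1, Il18r1 and Il18rap, while Sigirr is on chromosome 7 and Il1rap on chromosome 16. The 250 bases before the annotated starts of Il1rl1, which has 2 listed starts, and of Il18rap are shown because these genes of the run were the ones read on every J365 array. The sequences are RefSeq's on build GRCm38.p6, plus strand, and capitals mark the letters GATAA or their reverse complement TTATC.
Il1rl1, first start, chr1:40429320-40429569: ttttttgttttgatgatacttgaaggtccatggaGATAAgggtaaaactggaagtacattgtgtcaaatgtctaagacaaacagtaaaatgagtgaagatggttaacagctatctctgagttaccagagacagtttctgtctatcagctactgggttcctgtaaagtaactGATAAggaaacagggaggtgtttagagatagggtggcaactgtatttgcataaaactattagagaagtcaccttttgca
Il1rl1, second start, chr1:40439379-40439628: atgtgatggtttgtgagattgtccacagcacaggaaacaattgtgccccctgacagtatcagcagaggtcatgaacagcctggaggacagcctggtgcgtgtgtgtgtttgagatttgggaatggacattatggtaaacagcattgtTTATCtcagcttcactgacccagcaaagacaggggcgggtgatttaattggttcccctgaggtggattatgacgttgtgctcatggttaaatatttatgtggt
Il18rap, chr1:40515112-40515361: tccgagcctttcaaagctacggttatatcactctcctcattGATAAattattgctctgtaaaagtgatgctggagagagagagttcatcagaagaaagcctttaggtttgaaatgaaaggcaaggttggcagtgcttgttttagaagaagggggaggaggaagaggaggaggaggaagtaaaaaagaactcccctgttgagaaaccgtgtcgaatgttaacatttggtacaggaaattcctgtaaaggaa
GATAA, the core of the sequence that GATA factors bind, and GGAAG, a core read by ETS factors, were searched on both strands in windows of 300 bases around annotated starts, after the sequences had been seen. GATAA occurred 2 times in the first Il1rl1 window, 1 time in the second and 1 time in that of Il18rap, and at least 1 match was present in 25.4% of all 32851 windows and at least 2 in 5.27%. GGAAG occurred 1, 0 and 3 times in the same windows, against at least 1 match in 71.4% of all windows and at least 3 in 16.5%, and no match of either motif overlapped one of the other in these windows. Of the other members of the run, which were not read on every array of J365, Il1r2 held 1 GATAA in its window, and the windows of Il1r1, Il1rl2 and Il18r1 held none. These are matches of letters, not binding sites.

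A signal is given as normalized log2 signal, the log2 of the scanner's processed intensity less the array's own 75th percentile, so that 0 is the level of the probe at that percentile and -6 is near the floor. A probe counts as detected when the scanner software called it well above background. The arrays held 43.6% to 53.8% of probes above background, except D replicate 3 with 89.9%, and the 3 slides each held every line. D replicate 3 read 11 of the 14 family probes, where every other melanoma array read 3 or 4, so a value that rests on that array is given with the array named. All 10 melanocyte markers were above background on every melanoma array and all 9 pan-blood markers on every M0 and J365 array. In RNA from a whole culture, fewer cells of a type and less RNA per cell cannot be told apart.

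Il1rap and Sigirr were the members read in every line, and Il1rl1 and Il18rap were read on every array of J365 alone. In M, DB#1, DB#2, DB#3 and M0, 2 of the 8 members were above background on any array when each gene was read by its brightest probe. In J365, 4 were above background on every array and 5 on at least 1 array. In D, 2 were above background on every array and 6 on at least 1 array, the other 4 on D replicate 3 only. The 4 members with no detection on every array of any line were Il18r1, Il1r1, Il1r2 and Il1rl2.

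**Figure D1:**
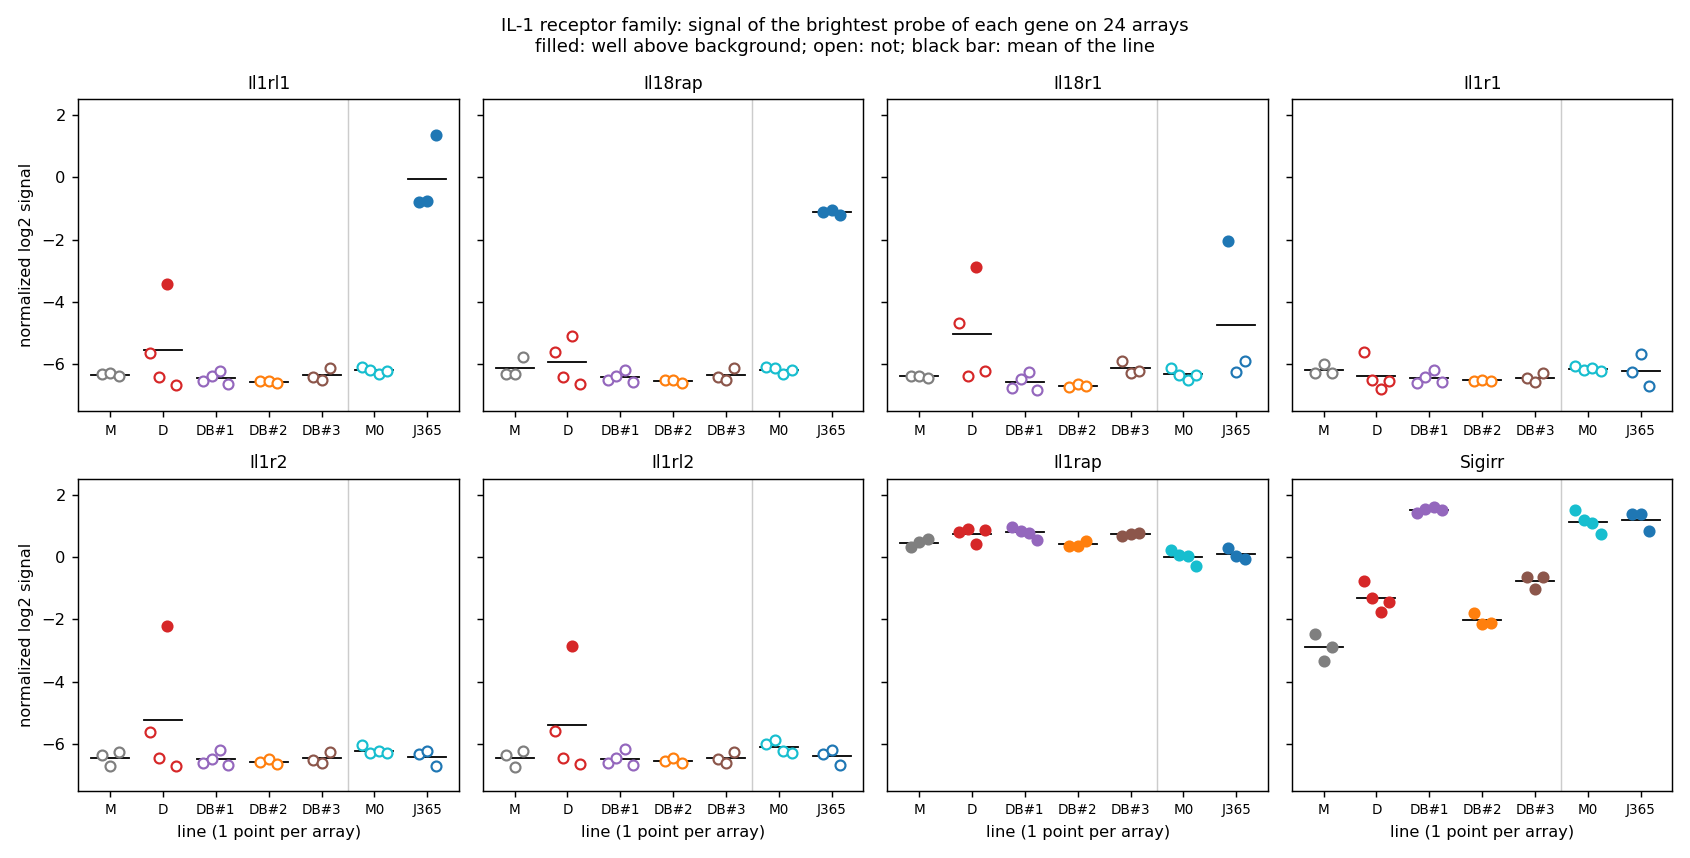
Normalized log2 signal of the brightest probe of each of the 8 family members on the 24 arrays, by line, with 1 point per array, filled where the probe was well above background, and a bar at the mean of the line. Il1rl1 and Il18rap are filled on all 3 J365 arrays, Il1rap and Sigirr on all 24 arrays, and Sigirr steps from -2.89 in M to 1.51 in DB#1.

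Il1rl1, the IL-33 receptor chain, was read by 3 probes that did not behave alike. On the brightest probe, made for the transcript NM_001025602, the J365 arrays gave 1.35 for replicate 4, -0.78 for replicate 1 and -0.77 for replicate 3. The M0 arrays gave -6.20, -6.09, -6.19 and -6.31 for replicates 4, 1, 2 and 3, none above background. All 3 J365 values were therefore above every M0 value, and J365 replicate 4 stood apart above the other J365 arrays. The mean was -0.07 ± 1.23 (SD, n = 3) in J365 and -6.20 ± 0.09 (SD, n = 4) in M0, a measured difference of 6.13 on the log2 scale. M0 was not above background, so a bound was taken against the lowest signal called above background on each array. On the processed intensity the level in J365 was at least 16.3-fold higher, 4.02 on the log2 scale. Leaving out single arrays moved the measured difference between 5.43 and 6.49, and on the 3 slides it was 5.32, 7.61 and 5.42. With the normexp background correction, which lifts the floor, it was 2.54, and as the mean over the probes it was 2.64. Both values are under the bound, so bounds of this kind hold only for the brightest probe and the processed intensity.

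In the melanoma lines the same Il1rl1 probe was not above background on any array of M, DB#1, DB#2 or DB#3, with line means from -6.57 in DB#2 to -6.33 in M. D gave -5.64, -6.40 and -6.66 on replicates 1, 2 and 4, and -3.44 on replicate 3, the array with the high detection rate. Against M, DB#1, DB#2 and DB#3, J365 was at least 18.7-fold, 19.4-fold, 21.0-fold and 18.6-fold higher. These are the values that led to the choice of the gene and stand here as a description.

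The second Il1rl1 probe, made for the same transcript, did not separate J365 from M0. In J365 it gave -3.18 on replicate 4, which was above background, and -6.07 and -4.79 on replicates 1 and 3, which were not. In M0 it gave -0.80 on replicate 1, above background, and -6.40, -6.35 and -6.51 on replicates 4, 2 and 3. The ranges overlapped, and the means were -4.68 and -5.01. In D this probe was above background on replicates 3 and 4, at -4.37 and -4.18, and on no array of the other melanoma lines. The third probe, made for NM_010743, the transcript of the soluble receptor form that lacks the membrane anchor, was above background on 1 J365 array, replicate 4, at -3.65, with -4.84 and -6.04 on replicates 1 and 3 and -6.18 to -6.45 in M0, so that these ranges did not overlap. No position of the 3 probes within the transcripts was used here. The statement that Il1rl1 was detected on every array of J365 rests on the brightest probe.

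**Figure D2:**
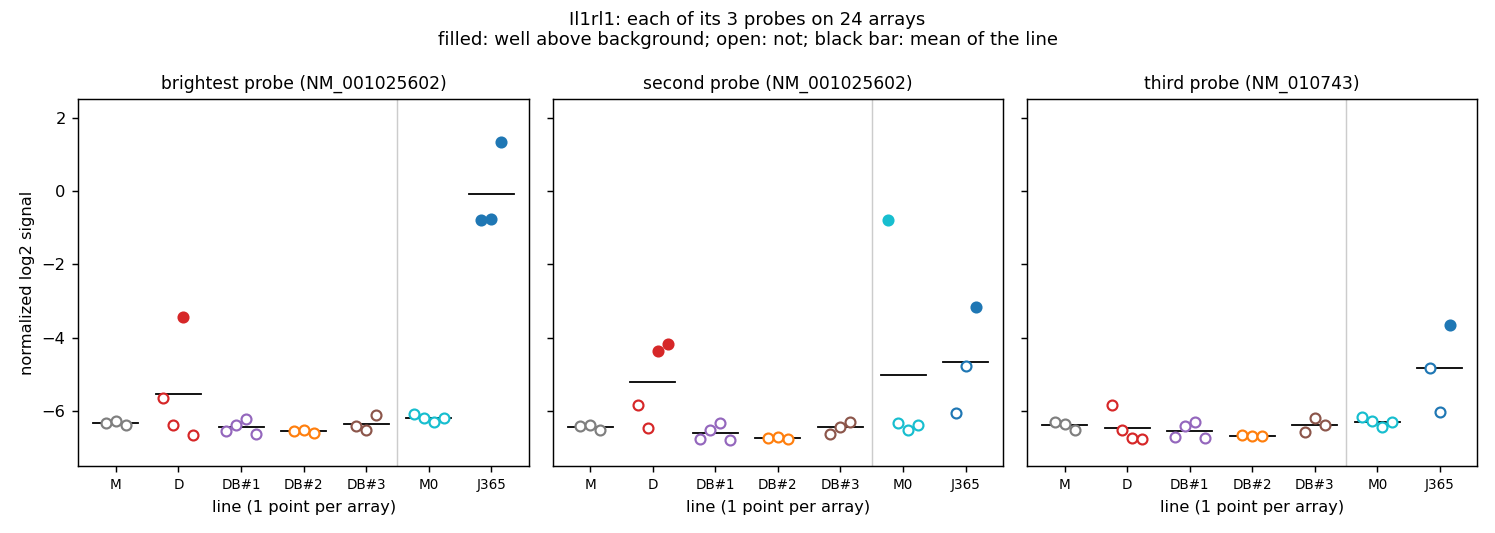
Normalized log2 signal of the 3 Il1rl1 probes on the 24 arrays by line, 1 point per array, filled where well above background, with a bar at the mean of the line. The brightest probe is filled on all 3 J365 arrays, on D replicate 3 and on no M0 array, the second on 1 J365 array, on M0 replicate 1 at -0.80 and on D replicates 3 and 4, and the third on 1 J365 array.

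Il18rap, the accessory chain of the IL-18 receptor, had 1 probe and the tightest J365 values of the family. The arrays gave -1.21, -1.11 and -1.04 for J365 replicates 4, 1 and 3, all above background, and -6.18, -6.09, -6.13 and -6.31 for M0 replicates 4, 1, 2 and 3, none above background. The groups did not overlap, with means of -1.12 ± 0.08 (SD, n = 3) and -6.18 ± 0.10 (SD, n = 4), a measured difference of 5.06. J365 was at least 7.84-fold higher than M0 by the bound on the processed intensity, 2.97 on the log2 scale. The slides gave measured differences of 5.05, 5.04 and 5.03, and the normexp correction gave 1.67, under that bound. No melanoma array was above background, D replicate 3 at -5.11 included, and J365 was at least 8.88-fold higher than D and at least 9.01-fold higher than M. Genes above background on every J365 array and on no M0 array numbered 65 of 45547, or 0.143%, and 2 of the 8 members were among them. That contrast had chosen the members, so nothing is read from this count.

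Il18r1, the chain that binds IL-18 and pairs with Il18rap, was not read along with its partner. Its brightest probe gave -2.05 on J365 replicate 1, above background, but -5.91 and -6.23 on replicates 4 and 3, and -6.11 to -6.50 in M0. The J365 and M0 values overlapped. Its other probe was at -6.50, -6.32 and -6.16 in J365, none above background. D replicate 3 gave -2.88 and -1.88 on these probes and no further melanoma array was above background on either.

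The IL-1 and IL-36 arms of the family were at the floor in the myeloid lines and, outside D replicate 3, in the melanoma lines. Il1r1, the signalling receptor of IL-1, had 1 probe, above background on none of the 24 arrays, with line means from -6.52 in DB#2 to -6.15 in M0. Il1r2, the decoy, was above background only on D replicate 3, at -2.20 and -2.80 on its 2 probes. Il1rl2, the IL-36 receptor chain, was likewise above background only on D replicate 3, at -2.85. For these genes no order of the lines can be given. Il1rapl1 and Il1rapl2, family genes of the nervous system that are not among the members, were tested in no comparison.

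The run on chromosome 1 was not read as a block. Map4k4, a kinase gene just before the run, had a mean of 3.91 in M and was above background on every melanoma array but on no M0 or J365 array. Slc9a4 and Slc9a2, the sodium-proton exchanger genes just after it, were above background only on D replicate 3, and the long non-coding gene Gm16894 on no array. Gm35600 and Gm35801, also next to the run, had no probe. The J365 minus M0 differences of the neighbours with a probe were -0.06 for Map4k4, -0.19 for Gm16894, -0.12 for Slc9a4 and -0.20 for Slc9a2, each with neither line above background on any array.

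**Figure D3:**
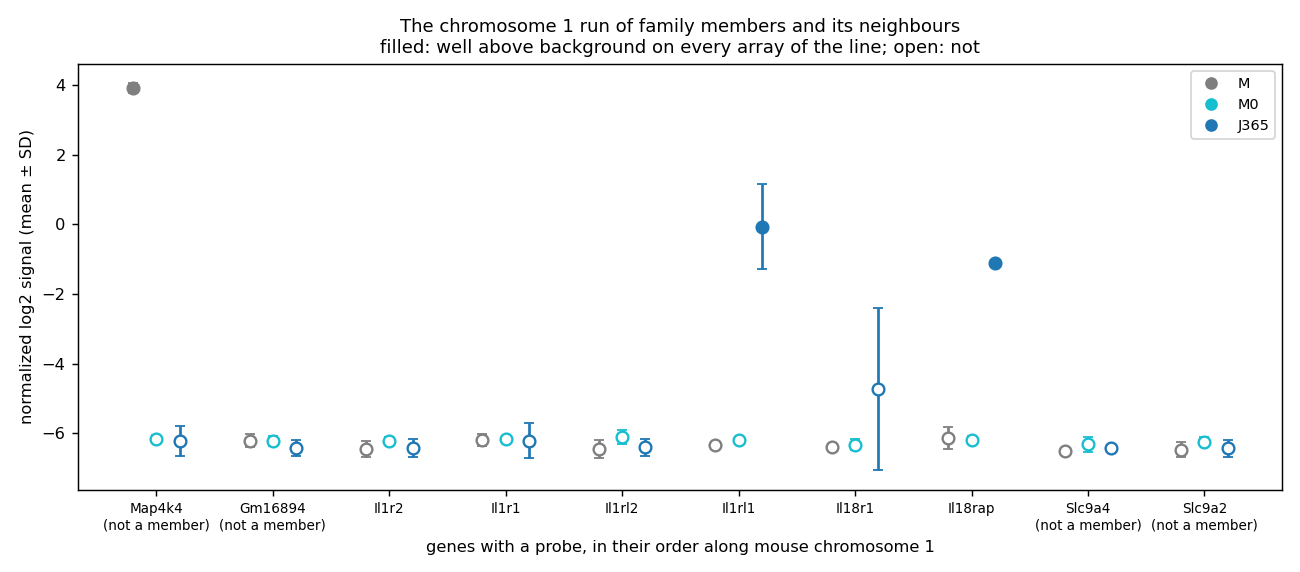
Mean normalized log2 signal with SD over the arrays of M, M0 and J365 for the genes of the chromosome 1 run that have a probe and for their neighbours, in their order along the chromosome and not to scale. J365 is filled, above background on every array, at Il1rl1 (-0.07) and Il18rap (-1.12), while Il18r1 between them has 1 of 3 arrays above background, and no M0 point is filled.

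Markers of cells known for these receptors were measured beside Il1rl1 and Il18rap. Of 16 mast cell and basophil markers 15 had a probe. On every M0 array 6 were above background, Ms4a2, Cma1, Tpsb2, Hdc, Gata2 and Cd200r3. On every J365 array 7 were, the same genes and Cpa3. Kit, Mcpt1, Mcpt2, Mcpt4 and Hpgds were above background on no array of either line. The sum of the linear levels of the 15 was 60.9 to 71.1 in M0 and 65.3 to 77.1 in J365. In M0 most of this sum was Gata2, at a mean of 5.93 on the log2 scale, so the sum says little about the other markers. By limma, 0 of 7 tested were called in J365 minus M0, with 2 at an unadjusted p under 0.05. The 2 were Cpa3, a mast cell protease, at -3.17 ± 1.24 in J365 and -5.37 ± 1.17 in M0 (SD, adjusted p = 0.0912, limma), and Cma1, mast cell chymase, at 3.05 ± 1.09 and 1.43 ± 0.61 (adjusted p = 0.443, limma). Of 11 T, NK and innate lymphoid markers, 2 were above background on every array of each line, Cd3e and Cd4. Both were also above background on every melanoma array, so their detection did not set the myeloid lines apart. Cd8a, Ncr1, Eomes, Gata3, Rora and Il7r were above background on no array of either. The summed level of the 11 markers was 3.89 to 6.98 in M0 and 3.64 to 7.50 in J365. On the melanoma arrays it was 4.85 to 9.64, the highest on D replicate 3. In J365 minus M0, 0 of 2 tested were called, with 0 at an unadjusted p under 0.05. The part of mast cell genes in the Il1rl1 and Il18rap levels was not tested.

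The ligands were on the other side of the panel. Il18 and Il33 were above background on all 17 melanoma arrays and on no M0 or J365 array when read by their brightest probes, while the receptor chains Il1rl1 and Il18rap were read on every array of J365. In M minus M0, where 56.6% of 22426 genes tested were called, Il18 was 0.73 ± 0.18 (SD, n = 3) in M against -5.33 ± 0.21 (SD, n = 4) in M0, at least 28.2-fold higher (adjusted p = 1.0e-13, limma). Il33 was -0.48 ± 0.75 against -6.30 ± 0.15, at least 12.2-fold higher (adjusted p = 2.9e-09, limma). Over the alternatives the measured difference was 3.24 to 6.20 for Il18 and 2.35 to 6.06 for Il33, always called. The lowest values were under the bounds on the processed intensity, 4.82 and 3.61 on the log2 scale. Il18bp, the soluble trap of IL-18, was above background on all 24 arrays, from -3.21 in J365 to -1.96 in DB#2, and no comparison called it. Il1a was above background on D replicate 3 at -2.06 and on M0 replicate 4 at -3.50, Il1b on D replicate 3 at -1.66 and Il1rn, the IL-1 receptor antagonist, on D replicate 3 at -0.95, by their brightest probes, and on no other array.

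**Figure D4:**
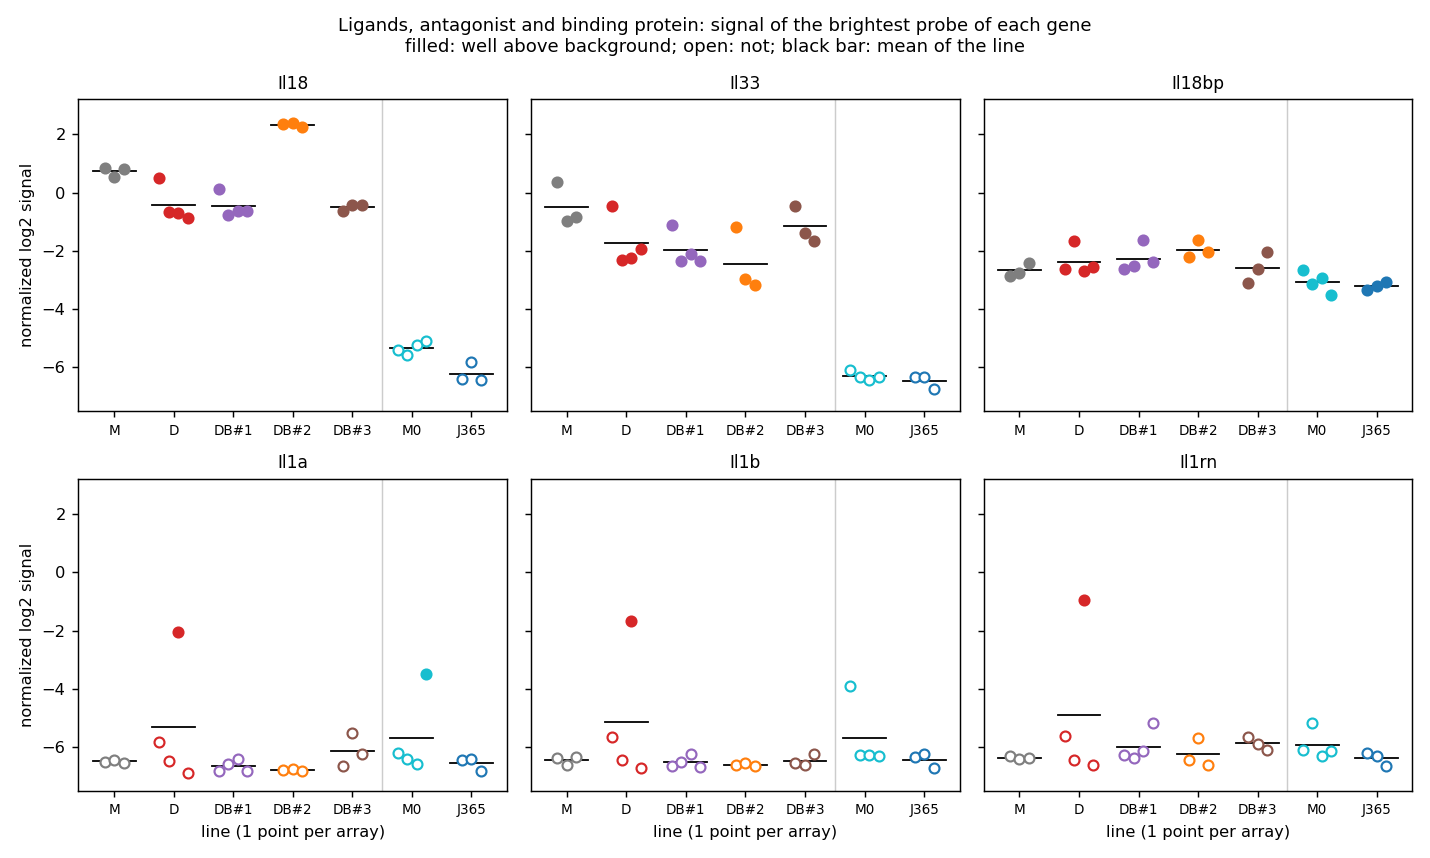
Normalized log2 signal of the brightest probe of Il18, Il33, Il18bp, Il1a, Il1b and Il1rn on the 24 arrays by line, 1 point per array, filled where well above background, with a bar at the mean of the line. Il18 and Il33 are filled on the melanoma arrays only, with Il18 highest in DB#2 (2.33), and Il1b and Il1rn are filled on D replicate 3 alone.

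Sigirr, the inhibitory receptor, was the member whose levels lay farthest apart among the melanoma lines. It had 1 probe, so no other probe could be set beside its values. M gave -2.47, -3.32 and -2.89 on replicates 1, 2 and 3. D gave -0.78, -1.31, -1.76 and -1.45 on replicates 1 to 4. All D arrays were above all M arrays. DB#1 gave 1.40, 1.54, 1.61 and 1.50 on replicates 1 to 4, DB#2 gave -1.81, -2.16 and -2.13 on replicates 1 to 3, and DB#3 gave -0.65, -1.01 and -0.63 on replicates 3 to 5. Every DB#1 array lay above every other array of the melanoma lines, and no array of the 4 derived lines overlapped M.

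In order, the line means were 1.51 ± 0.09 in DB#1, 1.20 ± 0.31 in J365, 1.14 ± 0.32 in M0, -0.76 ± 0.21 in DB#3, -1.33 ± 0.41 in D, -2.03 ± 0.20 in DB#2 and -2.89 ± 0.42 in M (SD over arrays). The neighbours J365 and M0, and DB#3 and D, overlapped, while the ranges of all other neighbours in this order did not. Sigirr in J365 and M0 differed by 0.06, with 0.84, 1.38 and 1.38 on the J365 arrays inside the M0 range of 0.75 to 1.53.

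As a description, the mean of Sigirr was higher than in M by 4.40 on the log2 scale in DB#1, which is 21.2-fold, by 2.13 in DB#3, 4.38-fold, by 1.57 in D, 2.96-fold, and by 0.86 in DB#2, 1.82-fold. All 4 comparisons use the same M arrays. Within the 3 slides the difference was 3.99 to 4.72 in DB#1, 1.82 to 2.31 in DB#3, 1.02 to 1.84 in D and 0.34 to 1.52 in DB#2. Over the alternative settings it was 3.22 to 4.62 in DB#1, 1.26 to 2.34 in DB#3, 0.80 to 1.78 in D and 0.35 to 1.10 in DB#2, the lowest value each time with the normexp correction.

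Markers of other cells were measured beside Sigirr. No melanocyte marker of 10 was called in D, DB#1, DB#2 or DB#3 against M by limma, with 0, 0, 1 and 2 at an unadjusted p under 0.05. In DB#1, Kit rose by 0.93 ± 0.23, Gata2 fell by 0.93 ± 0.24, and the blood cell genes Coro1a and Lcp1 fell by 1.70 ± 0.43 and 2.45 ± 0.47 (SE, adjusted p of 0.0243, 0.0389, 0.0304 and 0.00297, limma). These DB#1 calls come from the fit without the block on replicate numbers, and no alternative is given for them. In DB#2, Lcp1 fell by 2.82 ± 0.50, Gata3, a T cell and innate lymphoid factor, rose by 2.44 and the fibroblast gene Dcn was at least 7.87-fold higher (adjusted p of 0.00147, 0.000166 and 1.8e-05, limma), and no marker of these lists was called in D or DB#3. Coro1a and Lcp1 differed from M by -1.55 and -1.24 in D and by -1.67 and -1.67 in DB#3, each at an unadjusted p under 0.05 but not passing (adjusted p of 0.0685, 0.275, 0.0667 and 0.108, limma). The summed pan-blood level was 1.63 to 2.45 in M, 0.741 to 2.00 in D, 0.631 to 0.773 in DB#1, 0.728 to 1.06 in DB#2 and 0.723 to 0.989 in DB#3, against 151 to 221 in M0. Of the 9 pan-blood markers, Coro1a, Was and Lcp1 were above background on every M array, and Spi1 and Itgb2 on some. Ptprc, Cd53, Laptm5 and Vav1, which mark white blood cells, were above background on no M array. The part of these genes in the Sigirr levels was not tested.

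Il1rap, the accessory chain shared by the IL-1, IL-33 and IL-36 receptors, was read in all 7 lines within a narrow range. Its brightest probe was above background on all 24 arrays, with line means of 0.79 ± 0.18 in DB#1, 0.75 ± 0.22 in D, 0.73 ± 0.06 in DB#3, 0.46 ± 0.14 in M, 0.42 ± 0.09 in DB#2, 0.08 ± 0.18 in J365 and 0.01 ± 0.22 in M0 (SD). The ranges of DB#3 and M and of DB#2 and J365 did not overlap, and those of all other neighbours in this order did. Against M the differences were 0.28 ± 0.17 in D, 0.33 ± 0.17 in DB#1, -0.05 ± 0.18 in DB#2 and 0.27 ± 0.18 in DB#3 (SE). J365 and M0 differed by 0.07. A second probe, made for NM_134103, was also above background on all arrays, from -3.19 on J365 replicate 4 to -1.83 on DB#1 replicate 1, and its last probe, for NM_001159318, on D replicate 3 only.

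**Figure D5:**
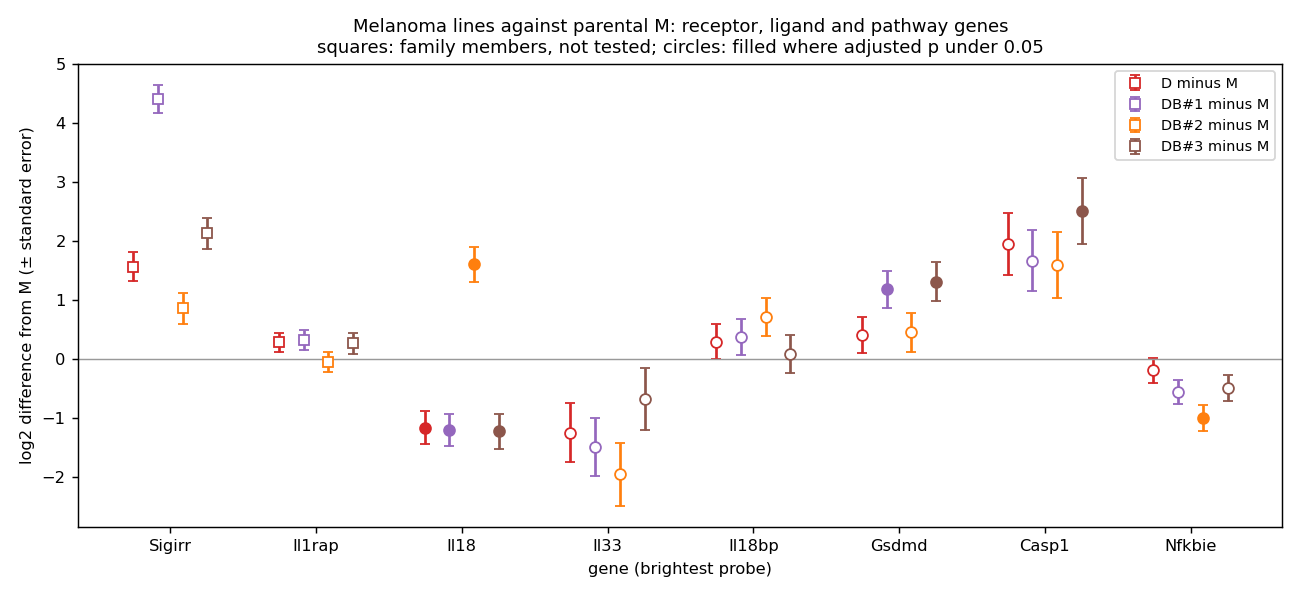
Log2 difference from M with its standard error for Sigirr, Il1rap, the ligands Il18 and Il33, the trap Il18bp and the pathway genes Gsdmd, Casp1 and Nfkbie in D, DB#1, DB#2 and DB#3. Sigirr and Il1rap, which were not tested, are squares, and the other genes are circles, filled where the adjusted p was under 0.05. Sigirr is highest in DB#1 at 4.40, Il18 is above 0 in DB#2 and below 0 in the other lines, and Il1rap lies near 0 in all 4.

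Il18, the ligand of the Il18r1 and Il18rap pair, moved one way in DB#2 and the other way in the remaining derived lines. M gave 0.84, 0.52 and 0.82. DB#2 gave 2.36, 2.38 and 2.26, all above M, a rise of 1.60 ± 0.30 (SE), 3.04-fold (adjusted p = 0.00233, limma), which passed under all 18 alternatives. D gave 0.49 on replicate 1 and -0.66, -0.69 and -0.88 on replicates 2, 3 and 4, and fell by 1.16 ± 0.28 (adjusted p = 0.0277, limma). DB#1 gave 0.14 on replicate 1 and -0.77, -0.62 and -0.63 on replicates 2, 3 and 4, and fell by 1.20 ± 0.28 (adjusted p = 0.0154, limma). DB#3 gave -0.64, -0.42 and -0.42 and fell by 1.23 ± 0.30 (adjusted p = 0.0275, limma). None of these lines overlapped M. Over the alternatives the difference stayed at -1.47 to -0.98 in D, -1.41 to -1.01 in DB#1 and -1.33 to -1.03 in DB#3, while the adjusted p rose over 0.05 under 10 of 18 alternatives in D, 6 of 19 in DB#1 and 8 of 18 in DB#3. The highest adjusted p was 0.896 in D, in the fit on D and M alone, and 0.252 in DB#3, with the replicate block. In DB#1, where replicate numbers pair the arrays, the block on the number gave an adjusted p of 0.0524. Leaving out 1 array was enough for the call, not the difference, to be lost: M replicate 1, 2 or 3 or D replicate 2, 3 or 4 in D (adjusted p up to 0.137), M replicate 1 or 3 or DB#1 replicate 2, 3 or 4 in DB#1 (up to 0.0857), and any of the 6 arrays in DB#3 (up to 0.136).

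Il33, the ligand of Il1rl1, was lower on average in the derived lines, but no difference passed. The means were -0.48 ± 0.75 in M, -1.16 ± 0.64 in DB#3, -1.73 ± 0.86 in D, -1.98 ± 0.58 in DB#1 and -2.44 ± 1.10 in DB#2 (SD), and all neighbours in this order overlapped, although DB#1 and DB#2 did not overlap M. The adjusted p was 0.0555 in DB#2 and 0.149 to 0.977 in the other lines (limma). In DB#2, 6 of 18 alternatives called it, and the normexp background correction and the mean over probes called it in DB#1 also. Without DB#2 replicate 1 the adjusted p in DB#2 was 0.00653. A second Il33 probe was above background on all M arrays and on no DB#1 or DB#2 array.

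Genes that cut or release the ligands were counted in a list of 10, of which 5 or 6 were tested in each melanoma comparison. Gsdmd, the pore protein through which these cytokines leave a cell, rose by 1.18 ± 0.31 (SE) in DB#1, from -2.29 ± 0.26 to -1.11 ± 0.27 (SD, adjusted p = 0.0401, limma), and by 1.31 ± 0.33 in DB#3 (adjusted p = 0.0383, limma). In DB#1 the paired block gave an adjusted p of 0.108. Over the alternatives the adjusted p of Gsdmd was over 0.05 under 11 of 19 in DB#1 and 12 of 18 in DB#3. Among these were the mean over its probes (0.174 and 0.167) and, in DB#3, the replicate block (0.409). Both calls were lost without M replicate 1, 2 or 3 (adjusted p up to 0.188 in DB#1 and 0.164 in DB#3, both without M replicate 2), and without DB#1 replicate 2, 3 or 4 (0.0801, 0.134 and 0.0981) or DB#3 replicate 4 or 5 (0.145 and 0.238). Casp1, the protease that matures IL-1 beta and IL-18, was above background on 1 of 3 M arrays and on all DB#3 arrays, and rose by 2.51 ± 0.56 in DB#3 (adjusted p = 0.0144, limma), a call lost without M replicate 2 or 3 or DB#3 replicate 3 (0.0605, 0.105 and 0.132), with quantile normalization, the replicate block or the lines compared alone (0.0890, 0.0506 and 0.101), and with normexp, where the difference was 1.08 (0.0816). Its differences of 1.95 ± 0.52 in D, 1.67 ± 0.52 in DB#1 and 1.60 ± 0.56 in DB#2 did not pass, with adjusted p of 0.0580, 0.113 and 0.196. No gene of this list was called in D or DB#2, where 2 each were at an unadjusted p under 0.05.

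The signalling genes behind the receptors were read against the share of all genes called, which was 2.22% in D minus M, 3.01% in DB#1 minus M, 2.68% in DB#2 minus M and 2.33% in DB#3 minus M. Of 16 receptor-proximal genes tested, from Myd88 to Map3k8, 0 were called in each of the 4 comparisons by limma, with 0 at an unadjusted p under 0.05 in any. Of 18 genes of the NF-kappaB and MAP kinase branch tested, 1 was called, Nfkbie in DB#2, which encodes an inhibitor of NF-kappaB. It fell by 1.00 ± 0.22 (SE, adjusted p = 0.0121, limma). The call was lost without M replicate 1 or DB#2 replicate 1 or 2 (0.0527, 0.0545 and 0.109). No scaling and the lines compared alone ended it too (0.230 and 0.0812). At an unadjusted p under 0.05 were 0, 1, 1 and 1 genes of this branch in D, DB#1, DB#2 and DB#3, each time Nfkbie. Of the 19 listed target genes of IL-1, IL-18 and IL-33, 3 or 4 were tested and 0 called, with 1, 1, 2 and 0 at an unadjusted p under 0.05 in D, DB#1, DB#2 and DB#3. Over all pathway lists, 1 of 45 tested was called in D, 2 of 45 in DB#1, 2 of 47 in DB#2 and 3 of 45 in DB#3, or 2.22%, 4.44%, 4.26% and 6.67%. The median difference of those tested was -0.0026, 0.08, 0.08 and 0.04, beside -0.01, 0.04, 0.02 and 0.03 over all genes tested. Under the paired block the DB#1 count was 0.

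Between J365 and M0, where 1.25% of 20660 genes tested were called, 2 of 53 pathway genes tested were called, both chemokine genes that attract white blood cells and are among the listed targets. Ccl4 was -0.35 ± 0.51 in J365 and -3.23 ± 0.80 in M0 (SD) and rose by 2.88 ± 0.36 (SE, adjusted p = 3.3e-05, limma). It was above background on every J365 array but not on every M0 array. Ccl3 was -2.38 ± 0.62 in J365 and not above background in M0, so that it was at least 3.28-fold higher (adjusted p = 4.4e-05, limma). With normexp the measured differences were 1.66 for Ccl4 and 0.97 for Ccl3, both still called. The value for Ccl3 was under its bound on the processed intensity, 1.71 on the log2 scale. Of 8 ligand-processing, 16 receptor-proximal and 18 NF-kappaB and MAP kinase genes tested, 0 were called by limma, with 3, 2 and 0 at an unadjusted p under 0.05. The median difference of the 53 genes was 0.14 beside 0.02 over all genes tested. Myd88, the adaptor of these receptors, was above background on every array of both lines, at 3.27 ± 0.21 in J365 and 2.75 ± 0.26 in M0 (SD), a difference that did not pass (adjusted p = 0.474, limma). In the test of whether D minus M departs from J365 minus M0, which called 1.75% of 23120 genes, 1 of 56 pathway genes tested was called, Ccl4, at -2.84 ± 0.51 (SE, adjusted p = 0.00258, limma), a value that restates the rise from M0 to J365, since neither D nor M was above background on any array.

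The parental melanoma line M and the myeloid line M0 differed in most of the pathway. In M minus M0, 13 pathway genes were higher and 25 lower of 54 tested, or 70.4%, beside 56.6% of all genes, with 26.8% of all genes higher and 29.8% lower. Of the receptor-proximal genes 6 were higher in M and 5 lower, with Myd88 at -1.89 ± 0.20 (log2 difference and SE). Irak4, the first kinase recruited, was higher by 0.81 ± 0.17, Map3k3 by 0.81 ± 0.23 and Map3k7, which activates IKK, by 0.77 ± 0.20, while Tab3 and Traf6, adaptor genes of the same step, differed by -1.50 ± 0.18 and -1.15 ± 0.18. As the mean over its probes Map3k7 differed by 0.0771 and was not called (adjusted p = 0.741, limma), and the Map3k3 call was lost with the lines compared alone (0.0629). Of the ligand-processing genes 6 of 8 were lower in M, led by Aim2, a DNA sensor, at least 90.2-fold, and with Gsdmd at -5.54 ± 0.31 and Casp4 at -2.71 ± 0.38. Of the target genes 7 of 8 were lower in M, Il6 at least 124-fold, Nfkbia by -1.83 ± 0.26 and Nfkbiz by -0.83 ± 0.25, a call that quantile normalization, no scaling and the mean over probes each ended (adjusted p of 0.0636, 0.118 and 0.129). In the NF-kappaB and MAP kinase branch 5 were higher and 7 lower. Map2k6, Jun and Relb were higher by 2.22 ± 0.33, 1.50 ± 0.28 and 1.43 ± 0.36, and Fos, Nfkb1 and Nfkbie were lower by -2.78 ± 0.70, -1.82 ± 0.24 and -1.18 ± 0.21. Sigirr, as a description, was at -2.89 in M and 1.14 in M0, and Il1rap at 0.46 and 0.01.

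Genes with a pattern like that of a member were ranked by Pearson's r over the 7 line means, among 14312 genes with a symbol that were above background on every array of at least 1 line. For Il1rl1 they were 2410003L11Rik, Tfcp2l1, Il18rap, Bicc1 and Csprs, with r from 0.9964 to 0.9995, all of them above background on all 3 J365 arrays and on no M0 array. Il18rap, the third of these, was the only member among them. For Il18rap they were Il1rl1 (r = 0.9974), Bcl2a1c and Tfcp2l1. For Sigirr they were Carmn (r = 0.947), Psma4 (0.940) and Wdyhv1 (0.940). Carmn had means of -2.52 in DB#1 and -6.47 in M, while the means of Psma4 ran only from 6.20 in M to 6.54 in J365. For Il1rap they were Tnpo1, Prxl2c and Rbis, with r from 0.997 to 0.998. With 7 line means, 1 line that stands apart sets the coefficient, as J365 does for Il1rl1 and Il18rap, and the means share arrays and scaling.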

How the data were processed

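The series held 24 one-colour Agilent arrays, 1 labelled RNA each. Per the deposited file headers, the authors' values are processed intensity, background-corrected by Agilent Feature Extraction 10.7.3.1 on a linear scale with no scaling between arrays, from a design annotated on mouse build mm9. The deposited series table held the same intensity in all 1511424 values. The deposited marks other than intensity, 0 or 1 per spot, gave outliers, saturation and detection.

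Here log2 intensity was taken less each array's 75th percentile (pseudocount 0). After 117 probes marked as outliers were left out, 56488 probes remained, no spot was saturated, and no array pair was identical. Symbols came from RefSeq accessions (32917 probes named). A gene was read by its brightest probe, every probe being given for members, and tested if above background on every array of at least 1 line compared. limma 3.58.1 in R 4.3.3 fitted all 24 arrays with 1 term per line (17 residual degrees of freedom), with Benjamini-Hochberg adjustment over all genes tested and a threshold of 0.05. The number of arrays limits the precision. The study's methods name no test for the arrays. Python 3.11.15, numpy 2.4.6, pandas 2.3.3 and matplotlib 3.10.9 were used, and the fit was tested on simulated data.

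The members and all gene lists were chosen with earlier results of these data known, and the members' values over all lines are a description, although they stand in the same fit. Named were all members, the called pathway genes (where over 6 were called, up to 3 rises and 3 falls per list, preferring genes above background on every array of both lines), the ligands, the nearest neighbours of the chromosome 1 run and the genes most alike over line means. Marker genes are named beside the results they were measured with, chosen after their values were seen. Replicate numbers come from the labels, and M0 replicate 4 and J365 replicate 4 carry no number there. Arrays of the same number deviated together from their line means in DB#1 and M. The correlations were 0.65, 0.57 and 0.91 for replicates 1, 2 and 3 over 15768 genes, and the replicate 3 arrays shared a slide. The block on the number is therefore given beside the DB#1 results for Il18, Gsdmd and the pathway count. It is not given beside the DB#1 marker calls. The labels do not say what a number marks.

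Alternatives were quantile and no scaling, a percentile over detected probes, normexp background correction with offset 50, other filters on dim probes, the mean over probes, outlier spots kept, slide and replicate blocks, fits on the compared lines alone, and arrays left out. The normexp alternative used median spot signals, since mean spot signals were not used here.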

Additional observations from a re-analysis of the deposited data

Results flagged for a closer look

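In lines with 4 arrays, 60 sets of 4 values were examined and 8 held an array far from the others, where chance gives about 1 in 20. Of the 8, 6 were above background, and 4 were in M0, 3 in D and 1 in DB#1. The second Il1rl1 probe (A_55_P2027731) read -0.80 on M0 replicate 1 against -6.51 to -6.35 on the other M0 arrays. The second Il18r1 probe (A_55_P2092492) read -1.88 on D replicate 3 against -6.48 to -5.81. One Il1r2 probe (A_55_P2804650) read -6.05 on M0 replicate 1 against -6.37 to -6.32, not above background. Il1a read -3.50 on M0 replicate 4 against -6.57 to -6.21. Il1b (A_66_P114500) read -3.92 on M0 replicate 1 against -6.33 to -6.26, not above background. Il18 read 0.49 on D replicate 1 against -0.88 to -0.66, and 0.14 on DB#1 replicate 1 against -0.77 to -0.62. Il18bp read -1.67 on D replicate 2 against -2.68 to -2.55.

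For Ccl4, D minus M less J365 minus M0 came to -2.84 on the log2 scale (adjusted p = 0.00258, limma). Ccl4 was above background on no D or M array, so no change from M to D was measured and the value restates the J365 minus M0 difference of 2.88.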

How the results depend on the processing

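No called result reversed its direction. Differences that were not called or not tested took both signs for Il18bp in J365 minus M0, D and DB#3, Il33 in DB#3, Il1rap in J365 minus M0, DB#1 and DB#2, and Sigirr in J365 minus M0. The members were not tested, so no count of called members is given. Pathway genes called in J365 minus M0 (2) were 4 with quantile scaling and 0 where both lines had to be above background. In D minus M (1) they were 2 with quantile scaling, the percentile over detected probes or the slide block, 0 with no scaling, no filter, the replicate block or the compared lines alone, and 0 to 2 with single arrays left out. In DB#1 minus M (2) they were 1 with the percentile over detected probes, no filter, or both lines above background, 0 with the replicate block, and 0 to 2 with single arrays left out. In DB#2 minus M (2) they were 4 with normexp or without D replicate 3 in any fit, 1 with no scaling, and 1 to 3 with single arrays left out. In DB#3 minus M (3) they were 1 with no filter, with both lines above background or with the compared lines alone, 0 with the replicate block, and 0 to 1 with single arrays left out. In M minus M0 (38) they were 25 with both lines above background. In the test between models (1) they were 3 with quantile scaling, 2 with normexp, 0 with both lines above background or the compared lines alone, and 1 to 2 with single arrays left out. A filter on both lines tests fewer genes, and for the rest the cause was not tested. Outside DB#1 the numbers did not pair the arrays (correlations from -0.79 to 0.85 over the comparisons). Probes not above background give only bounds, which hold for the processed intensity.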

Other observations

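Il33 was highest on replicate 1 in each of the melanoma lines that hold that number, at 0.38 in M, -0.46 in D, -1.12 in DB#1 and -1.17 in DB#2, where the next highest arrays were at -0.85, -1.93, -2.11 and -2.98. In DB#3, whose arrays are numbered 3 to 5, replicate 3 was highest at -0.45 and the next was at -1.37. These arrays were not on 1 slide. Il18 was also highest on replicate 1 in M, D and DB#1, at 0.84, 0.49 and 0.14. The next highest Il18 values there were 0.82, -0.66 and -0.62. In DB#2, Il18 was highest on replicate 2, at 2.38 beside 2.36, and in DB#3 on replicate 4, at -0.42.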
